A study of Homo sapiens with 4 samples.

Results

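TUG1, LINC-PINT and TP53TG1 are human long noncoding RNA (lncRNA) genes. All isoforms listed under these names were taken from a deposited table of lncRNA abundance. They numbered 148 of 104786 isoforms, 43 of TUG1, 79 of LINC-PINT and 26 of TP53TG1, and belonged to 3 of 46902 lncRNA genes. The first group was MDA-MB-231-P3, a highly metastatic subline obtained by 3 rounds of tail vein injection into mice, recovery of lung tumours and expansion in culture. The other group was its parent MDA-MB-231, a triple-negative breast cancer cell line that had no such selection. Each line gave 2 libraries of cultured cells. The labels did not say whether these came from separate cultures, so each p-value reflects spread among these 4 libraries alone, part of which could be technical. MDA-MB-231-P3 was 1 selected population, so lung selection cannot be told apart from other differences that arose during its derivation.

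Long noncoding RNAs are transcripts that act largely without being translated, and some of them bind chromatin regulators or other proteins. TUG1, first described in the developing retina, is a conserved transcript, and LINC-PINT is a stress-induced one. Both have been reported to bind the repressive chromatin complex PRC2. TP53TG1 is induced after DNA damage.

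In hg19, TUG1 occupies positions 31365231 to 31375381 of chromosome 22 (plus strand), and its start is 471 bases from that of the divergently transcribed coding gene MORC2. LINC-PINT occupies 130476023 to 130794935 of chromosome 7 (minus strand). Its start overlaps that of the coding gene MKLN1 on the opposite strand, with the 2 starts 80 bases apart. TP53TG1 occupies 86952259 to 86974876 of the same chromosome (minus strand), 104 bases from the start of the coding gene CROT on the opposite strand. GENCODE gives 20 transcripts for TUG1, 69 for LINC-PINT and 23 for TP53TG1. It classes TUG1 as protein coding and the other genes as lncRNA. The isoform numbers of the table have no match by name in that annotation, so no exon structure was assigned to an isoform.

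The promoter windows of the 3 genes are shown because each gene starts beside a coding gene on the other strand. Each runs from 250 bases before to 50 bases after a RefSeq start. The sequences come from a RefSeq table on GRCh38.p14, and each matched hg19 exactly at 1 place. These places are chr22:31365001-31365300 on the plus strand for TUG1, chr7:130794635-130794934 on the minus strand for the outermost LINC-PINT start, and chr7:86974759-86975058 on the minus strand for TP53TG1. Capitals mark the CCAAT box, the GC box GGGCGG and the E-box CACGTG, read on either strand.
TUG1: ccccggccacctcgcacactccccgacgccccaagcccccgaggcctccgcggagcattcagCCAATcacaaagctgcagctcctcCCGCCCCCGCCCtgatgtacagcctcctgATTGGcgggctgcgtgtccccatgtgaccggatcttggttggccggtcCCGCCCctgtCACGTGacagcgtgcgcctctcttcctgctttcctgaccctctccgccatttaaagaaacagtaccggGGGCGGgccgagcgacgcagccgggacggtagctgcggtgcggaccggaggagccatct
LINC-PINT: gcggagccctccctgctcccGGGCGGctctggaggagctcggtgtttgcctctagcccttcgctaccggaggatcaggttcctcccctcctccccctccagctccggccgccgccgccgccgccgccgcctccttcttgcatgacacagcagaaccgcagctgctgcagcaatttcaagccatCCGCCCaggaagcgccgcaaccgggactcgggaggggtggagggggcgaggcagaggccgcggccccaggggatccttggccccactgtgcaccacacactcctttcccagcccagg
TP53TG1: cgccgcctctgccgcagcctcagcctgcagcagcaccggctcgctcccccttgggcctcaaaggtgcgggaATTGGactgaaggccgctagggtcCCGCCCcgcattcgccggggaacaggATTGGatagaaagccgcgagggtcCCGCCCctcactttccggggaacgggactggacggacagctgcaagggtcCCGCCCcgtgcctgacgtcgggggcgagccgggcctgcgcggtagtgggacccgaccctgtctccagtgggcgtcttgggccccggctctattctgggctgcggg
GGGCGG stood at 4 places in the TUG1 window, at 2 in the LINC-PINT window and at 3 in the TP53TG1 window, and 45.0% of 35116 RefSeq promoter windows hold it. CCAAT stood at 2 places in the TUG1 window and at 2 in the TP53TG1 window, and 34.6% of windows hold it. CACGTG, a palindrome, stood at 1 place in the TUG1 window and in 7.26% of all windows. LINC-PINT has 4 RefSeq start windows, of which the outermost is printed, and the one at chr7:130598020-130598319 holds each of the 3 motifs once. None of these matches overlapped another. The NF-κB site consensus, searched because the study's title names that pathway, was not in these windows and was in 5.91% of all windows.

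The table's unit, FPKM, scales fragments by the length of a transcript and by library size. Read depth was unknown, so no counting error could be given. All isoforms of the table summed to 351135 and 372689 FPKM for MDA-MB-231-P3, against 460282 and 500086 FPKM for MDA-MB-231. The lymphocyte lncRNA LINC00861 and the luminal breast lncRNA DSCAM-AS1 were at or near 0 FPKM in all libraries. The lung-epithelium lncRNA NKX2-1-AS1 was low, at 0.577 and 0.505 FPKM in MDA-MB-231-P3, against 0.446 and 0.357 FPKM in MDA-MB-231, without overlap. Its part in any result was not tested. The lymphocyte lncRNA LINC00426 was listed at 0.139 and 0.158 FPKM in MDA-MB-231-P3, against 0.260 FPKM and near 0 in MDA-MB-231. Protein-coding markers were not analysed here.

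Summed over isoforms, TUG1 and LINC-PINT were listed higher and TP53TG1 lower in MDA-MB-231-P3, and none of the 3 passed the test over all genes. The test was limma on log2(FPKM + 0.5) with Benjamini-Hochberg adjustment at 0.05, run on all 6444 genes with a mean of at least 0.5 FPKM. It called 0 of the 3, where it called 0.0621% of all genes tested. A sum from a culture cannot tell fewer expressing cells from less RNA per cell.

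TUG1 had 30.4 and 33.2 FPKM in MDA-MB-231-P3, against 21.1 and 14.2 FPKM in MDA-MB-231. Both MDA-MB-231-P3 libraries lay above both of MDA-MB-231, and the parental pair was the more spread. The means were 31.8 ± 1.95 FPKM in MDA-MB-231-P3 and 17.7 ± 4.89 FPKM in MDA-MB-231 (SD, n = 2 each), a ratio of 1.80. On the log2(FPKM + 0.5) scale the difference was 0.85 (SE 0.31, 95% interval 0.02 to 1.68, unadjusted p = 0.0458, limma adjusted p = 0.322). In absolute terms 73.3% of tested genes had a smaller difference, and the rest, TUG1 included, had one at least as large. An unadjusted p under 0.05 in this direction was reached by 9.5% of all tested genes, and in the other by 5.68%.

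LINC-PINT had 40.8 and 35.2 FPKM in MDA-MB-231-P3, against 28.1 and 18.5 FPKM in MDA-MB-231. Again the MDA-MB-231-P3 libraries were the higher pair without overlap, and MDA-MB-231 replicate 2 was the lowest library for this gene as for TUG1. The means were 38.0 ± 4.01 FPKM in MDA-MB-231-P3 and 23.3 ± 6.75 FPKM in MDA-MB-231 (SD, n = 2 each), a ratio of 1.63. The log2 difference was 0.72 (SE 0.32, 95% interval -0.14 to 1.58, limma adjusted p = 0.378). Without MDA-MB-231 replicate 2 it was 0.42.

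TP53TG1, the least abundant of the 3, had 3.49 and 3.65 FPKM in MDA-MB-231-P3, against 5.26 and 4.48 FPKM in MDA-MB-231. Here the MDA-MB-231-P3 libraries were the lower pair, again without overlap. The means were 3.57 ± 0.112 FPKM in MDA-MB-231-P3 and 4.87 ± 0.551 FPKM in MDA-MB-231 (SD, n = 2 each), a ratio of 0.734. The log2 difference was -0.40 (SE 0.26, 95% interval -1.08 to 0.29, limma adjusted p = 0.514). Separation of the pairs alone is common in this table, as both MDA-MB-231-P3 libraries lay above both of MDA-MB-231 for 28.9% of tested genes and below them for 21.4%. A positive difference was found for 54.7%.

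**Figure D1:**
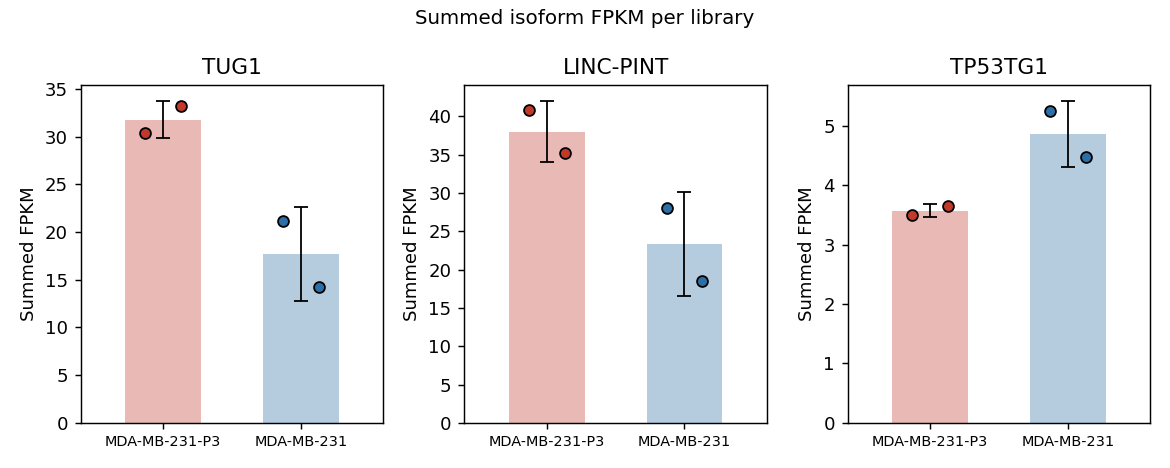
Summed FPKM of TUG1, LINC-PINT and TP53TG1 (vertical axes, FPKM) in MDA-MB-231-P3 and MDA-MB-231, with points for the 2 libraries of a line, bars for their mean and error bars for the SD. TUG1 and LINC-PINT are higher and TP53TG1 lower in both MDA-MB-231-P3 libraries, and each axis has its own scale from 0.

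In order of level, LINC-PINT stood above TUG1 and TUG1 above TP53TG1 in each of the 4 libraries. They ranked 245, 298 and 1269 by mean FPKM among the 6444 tested genes, so that all 3 were among the more abundant lncRNAs of these cells. LINC-PINT and TUG1 were close. Their values did not overlap in MDA-MB-231-P3, and in MDA-MB-231 the lower LINC-PINT library lay below the higher TUG1 library. The ratio of LINC-PINT to TUG1 was 1.34 and 1.06 in MDA-MB-231-P3, against 1.33 and 1.30 in MDA-MB-231.

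A ratio of summed FPKM within a library does not depend on how that library was scaled. TUG1 over TP53TG1 was 8.70 and 9.08 in MDA-MB-231-P3, against 4.02 and 3.18 in MDA-MB-231. LINC-PINT over TP53TG1 was 11.7 and 9.63 in MDA-MB-231-P3, against 5.34 and 4.14 in MDA-MB-231. Both ratios separated the lines, by 1.31 and 1.17 on the log2 scale. These ratios were chosen after the values were seen. An exact two-sided permutation test gave p = 0.333 for each, the smallest p that 2 libraries against 2 allow. The design could therefore not call either ratio, and neither gives the direction of a single gene.

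Scaling moved the single differences without turning them. When each library was rescaled to its sum without the 10 most abundant isoforms, the median log2 difference of all tested genes was 0.28, against 0.09 as deposited. The differences were then 1.09 for TUG1, 0.96 for LINC-PINT and -0.18 for TP53TG1. With libraries centred on their median the values were 0.74, 0.61 and -0.51. In no setting tried was any of the 3 sums called.

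**Figure D2:**
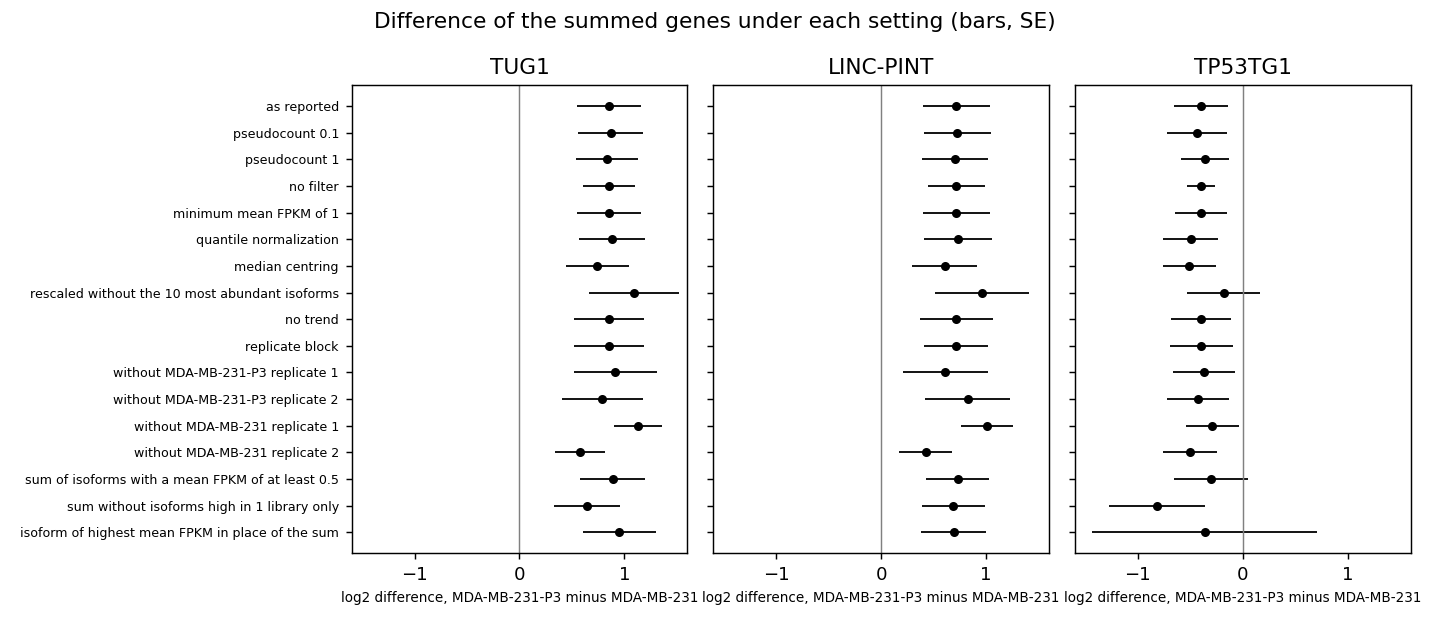
Difference of the summed genes on the log2(FPKM + pseudocount) scale, MDA-MB-231-P3 minus MDA-MB-231 (horizontal axes), under each setting (vertical axis), with points for the estimate and bars for the SE. TUG1 lies between 0.58 and 1.13, LINC-PINT between 0.42 and 1.01 and TP53TG1 between -0.81 and -0.18 over the alternatives.

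Single isoforms were also tested, with 8432 isoforms of the table reaching a mean of 0.5 FPKM. Of the 148 isoforms of the 3 genes, 27 reached it, 11 of TUG1, 13 of LINC-PINT and 3 of TP53TG1. The other 121 did not, and 66 of the 148 stayed under 0.01 FPKM in all 4 libraries. The test called 0 of the 27, where it called 0% of all tested isoforms, and 2 of the 27 had an unadjusted p under 0.05, where 13.3% of all tested isoforms did. Both were higher in MDA-MB-231-P3, a direction in which 7.87% of all tested isoforms had such a p, with 5.46% in the other. Isoforms listed near 0 may reflect how reads were divided among transcripts, so such values are given as listed.

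TUG1:17 was the most abundant TUG1 isoform in every library. It was listed at 8.11 and 8.10 FPKM in MDA-MB-231-P3, against 5.10 and 3.04 FPKM in MDA-MB-231, with no overlap (log2 difference 0.95, SE 0.36, limma adjusted p = 0.379). TUG1:47 had 4.98 and 4.63 FPKM in MDA-MB-231-P3, against 1.58 and 1.74 FPKM in MDA-MB-231. With both pairs tight and well apart, its log2 difference of 1.30 (SE 0.28) had the smallest p of the 27 isoforms, 0.00823 unadjusted and 0.308 after limma's adjustment over all isoforms. TUG1:57 went the other way in mean, at 3.66 and 1.99 FPKM in MDA-MB-231-P3 against 4.45 and 3.0 FPKM in MDA-MB-231. Its pairs overlapped (log2 difference -0.37, SE 0.41, limma adjusted p = 0.700).

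Several TUG1 isoforms were set by 1 library. TUG1:51 was listed at 0.0947 and 6.11 FPKM in MDA-MB-231-P3 and near 0 in MDA-MB-231, at 6.56e-06 and 0.0154 FPKM. TUG1:35 was listed near 0 and at 3.10 FPKM in MDA-MB-231-P3, against 0.240 and 0.220 FPKM in MDA-MB-231. Both were high in MDA-MB-231-P3 replicate 2 alone, where they held 18.4% and 9.35% of the TUG1 sum. Leaving out the 3 TUG1 isoforms that passed 0.5 FPKM in 1 library only, the sums were 29.7 and 23.7 FPKM in MDA-MB-231-P3, against 20.5 and 13.7 FPKM in MDA-MB-231. The pairs still did not overlap, and the log2 difference was 0.64.

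TUG1:38 had 2.13 and 0.865 FPKM in MDA-MB-231-P3, against 0.658 and 0.757 FPKM in MDA-MB-231, a narrow separation. The remaining TUG1 isoforms overlapped between lines. TUG1:16 had 2.41 and 2.56 FPKM in MDA-MB-231-P3, against 2.81 and 1.17 FPKM in MDA-MB-231. TUG1:13 had 2.37 and 1.55 FPKM in MDA-MB-231-P3, against 1.37 and 1.72 FPKM in MDA-MB-231. Their log2 differences were 0.35 and 0.25.
The other 3 were uneven within a line. For TUG1:56 the values were 2.58 and 0.520 FPKM in MDA-MB-231-P3 and 0.594 and 1.14 FPKM in MDA-MB-231. For TUG1:15 they were 1.19 and 0.760 FPKM in MDA-MB-231-P3 and 1.30 and 0.440 FPKM in MDA-MB-231. TUG1:1 had 1.27 and 2.09 FPKM in MDA-MB-231-P3, against 1.83 and 0.00775 FPKM in MDA-MB-231, so a single low parental library set its difference. In sum 10 of 11 tested TUG1 isoforms had a positive difference, with a median of 0.65. Over all tested isoforms 54% were positive, with a median of 0.085. TUG1:51 and TUG1:35 are among the 10, although their MDA-MB-231 means of 0.0077 and 0.230 FPKM lay under the filter. They passed it only through MDA-MB-231-P3, which set their sign, so the count is a description only. Just under the filter, TUG1:46 had 0.646 and 0.253 FPKM in MDA-MB-231-P3, against 0.428 and 0.270 FPKM in MDA-MB-231. Isoforms of 1 gene share reads and libraries and are not replicates.

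LINC-PINT was spread over more isoforms. Its most abundant isoform by mean, LINC-PINT:70, had 5.19 and 4.12 FPKM in MDA-MB-231-P3, against 3.13 and 2.27 FPKM in MDA-MB-231 (log2 difference 0.69, SE 0.32, limma adjusted p = 0.442). LINC-PINT:18 had 3.38 and 2.80 FPKM in MDA-MB-231-P3, against 1.71 and 1.30 FPKM in MDA-MB-231. Its log2 difference of 0.84 (SE 0.30) had an unadjusted p of 0.0457 and a limma adjusted p of 0.369. LINC-PINT:30 had 2.76 and 2.26 FPKM in MDA-MB-231-P3, against 1.38 and 1.31 FPKM in MDA-MB-231. These 3 isoforms kept the lines apart with similar ratios of 1.73, 2.06 and 1.87.

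LINC-PINT:77 separated the lines narrowly, at 3.15 and 2.90 FPKM in MDA-MB-231-P3 and 2.59 and 2.42 FPKM in MDA-MB-231. LINC-PINT:68 had 4.52 and 3.6 FPKM in MDA-MB-231-P3, against 2.56 and 0.137 FPKM in MDA-MB-231. The wide parental pair left it with a log2 difference of 1.70 and an SE of 0.83. LINC-PINT:71 was the 1 tested isoform of the 3 genes for which the MDA-MB-231-P3 pair lay below, at 1.62 and 1.16 FPKM against 1.77 and 1.77 FPKM in MDA-MB-231.
The other 7 tested LINC-PINT isoforms overlapped. LINC-PINT:36 had 3.61 and 5.11 FPKM in MDA-MB-231-P3, against 1.48 and 3.71 FPKM in MDA-MB-231. LINC-PINT:78 had 1.27 and 4.16 FPKM in MDA-MB-231-P3, against 3.6 FPKM and a value near 0 in MDA-MB-231. LINC-PINT:10 had 2.77 and 1.62 FPKM in MDA-MB-231-P3, against 3.08 and 0.531 FPKM in MDA-MB-231. In all 3 the libraries of 1 line differed as much as the lines did.
LINC-PINT:25 was listed at 2.06 and 1.63 FPKM in MDA-MB-231-P3, against near 0 and 1.75 FPKM in MDA-MB-231. LINC-PINT:21 had 2.77 and 0.667 FPKM in MDA-MB-231-P3, against 1.03 and 0.647 FPKM in MDA-MB-231. LINC-PINT:45 had 2.20 and 0.635 FPKM in MDA-MB-231-P3, against 0.713 and 0.136 FPKM in MDA-MB-231. LINC-PINT:29 was the steadiest, at 0.964 and 0.816 FPKM in MDA-MB-231-P3 and 1.06 and 0.831 FPKM in MDA-MB-231.
Of the 13 tested LINC-PINT isoforms 11 had a positive difference, with a median of 0.70. LINC-PINT:45, with an MDA-MB-231 mean of 0.424 FPKM, passed the filter only through MDA-MB-231-P3, which set its sign. The highest below the filter, LINC-PINT:75, was listed at 1.65 FPKM in MDA-MB-231-P3 replicate 1 and near 0 elsewhere. The MDA-MB-231-P3 pair lay above the parental pair for 9 of the 27 tested isoforms of the 3 genes and below it for 1. Of all tested isoforms 27.3% and 20.7% did so. TUG1:51, which passed the filter only through MDA-MB-231-P3, is among the 9.

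No tested TP53TG1 isoform separated the lines, although the sum did. TP53TG1:25 was listed at 1.08 FPKM and near 0 in MDA-MB-231-P3, against near 0 and 2.10 FPKM in MDA-MB-231. TP53TG1:19 had 0.240 and 0.858 FPKM in MDA-MB-231-P3, against 1.37 and 0.709 FPKM in MDA-MB-231. TP53TG1:21 had 0.457 and 1.23 FPKM in MDA-MB-231-P3, against 0.486 and 0.494 FPKM in MDA-MB-231. With an MDA-MB-231 mean of 0.490 FPKM, it passed the filter only through MDA-MB-231-P3, which set its sign.
The 3 tested isoforms held 50.8% and 57.3% of the TP53TG1 sum in MDA-MB-231-P3, against 35.3% and 73.8% in MDA-MB-231, so much of this gene lay below the filter. Its most abundant isoform under the filter, TP53TG1:8, had 0.208 and 0.653 FPKM in MDA-MB-231-P3, against 0.359 and 0.227 FPKM in MDA-MB-231. TP53TG1:4, picked after its values were seen, was listed at 0.947 FPKM in MDA-MB-231 replicate 1 and near 0 in the other libraries. TP53TG1:6, also under the filter and so picked, had 0.295 and 0.730 FPKM in MDA-MB-231-P3, against 0.202 and 0.143 FPKM in MDA-MB-231. Its pairs did not overlap, and its direction was opposite to that of the sum. Without the 5 isoforms that passed 0.5 FPKM in 1 library only, TP53TG1 summed to 2.48 and 0.938 FPKM in MDA-MB-231-P3, against 2.72 and 3.61 FPKM in MDA-MB-231. The log2 difference was then -0.81 (SE 0.46), and the libraries changed order within each line. TP53TG1:21 was among the isoforms left out, although it had 0.457, 0.486 and 0.494 FPKM outside MDA-MB-231-P3 replicate 2. Summing only isoforms with a mean of at least 0.5 FPKM gave -0.30 (SE 0.35).

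TP53TG1:11, TP53TG1:12 and TP53TG1:26 moved as a block, and they were chosen after their values were seen. Together they summed to 0.908 and 0.00929 FPKM in MDA-MB-231-P3, against 1.20 and 0.665 FPKM in MDA-MB-231. TP53TG1:12 over TP53TG1:11 was nevertheless 1.12 and 1.08 in MDA-MB-231-P3 and 1.09 and 1.12 in MDA-MB-231. The ratio of these isoforms was almost fixed while their level in MDA-MB-231-P3 replicate 2 was far below that in the other libraries. How reads were divided among the isoforms of TP53TG1 was not tested.

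**Figure D3:**
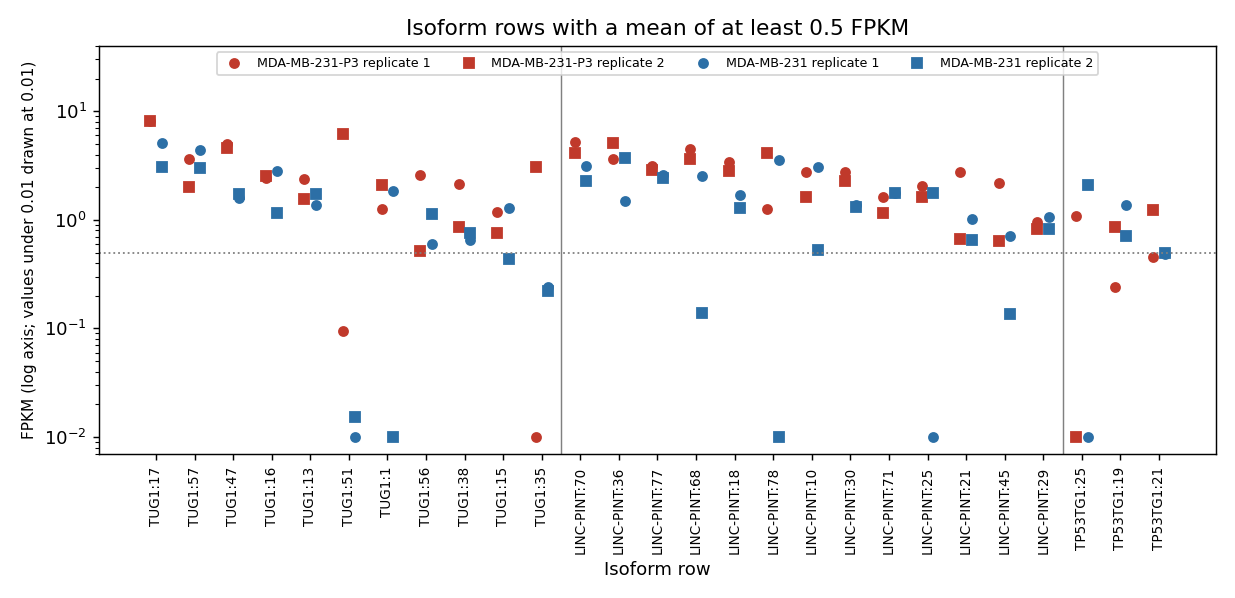
FPKM (vertical log axis) of the 27 isoforms with a mean of at least 0.5 FPKM, ordered by gene and mean level (horizontal axis), with 1 point per library, values under 0.01 drawn at 0.01 and a dotted line at 0.5. TUG1:17 and TUG1:47 keep the lines apart, whereas TUG1:51, TUG1:35, LINC-PINT:78, LINC-PINT:25 and TP53TG1:25 are split between libraries of the same line.

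The share of each isoform in its gene was compared as well. TUG1:17 held 26.7% and 24.4% of the sum in MDA-MB-231-P3, against 24.1% and 21.4% in MDA-MB-231. TUG1:57 held 12.05% and 6.01% in MDA-MB-231-P3, against 21.0% and 21.1% in MDA-MB-231. Its share was lower in both MDA-MB-231-P3 libraries, although limma on log2 shares of 5016 isoforms did not call it (log2 difference of the share -1.22, SE 0.42, limma adjusted p = 0.590). TUG1:57 was named as the TUG1 share of smallest p, so this separation was likely in advance.
TUG1:15, second in p among TUG1 shares, held 3.93% and 2.29% in MDA-MB-231-P3, against 6.14% and 3.09% in MDA-MB-231. LINC-PINT:71 held 3.97% and 3.30% in MDA-MB-231-P3, against 6.31% and 9.52% in MDA-MB-231 (log2 difference -0.99, SE 0.33, limma adjusted p = 0.568). LINC-PINT:29 held 2.36% and 2.32% in MDA-MB-231-P3, against 3.78% and 4.48% in MDA-MB-231 (log2 difference -0.77, SE 0.26, limma adjusted p = 0.582). Both shares were lower in each MDA-MB-231-P3 library than in each MDA-MB-231 library. They were named as the LINC-PINT shares of smallest p, so such a separation was likely in advance. The level of LINC-PINT:29 itself had a log2 difference of -0.055.
TP53TG1:21 held 13.1% and 33.8% in MDA-MB-231-P3, against 9.24% and 11.02% in MDA-MB-231. TP53TG1:19 held 6.88% and 23.5% in MDA-MB-231-P3, against 26.1% and 15.8% in MDA-MB-231. Both were named as the TP53TG1 shares of smallest p, and TP53TG1:21 passed the filter only through MDA-MB-231-P3. The higher share of TP53TG1:21 in that line was thus favoured in advance and is a description only. Of the 27 shares 0 passed, where 0% of all tested shares did, and 0 had an unadjusted p under 0.05, where 8.79% did.

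The spread of a gene over isoforms was put as an effective number, the inverse of the summed squared shares. For TUG1 it was 7.10 and 7.18 in MDA-MB-231-P3, against 6.96 and 7.26 in MDA-MB-231. For LINC-PINT it was 13.6 and 11.8 in MDA-MB-231-P3, against 13.2 and 9.5 in MDA-MB-231. For TP53TG1 it was 6.5 and 4.13 in MDA-MB-231-P3, against 6.96 and 3.71 in MDA-MB-231. TUG1 was nearly constant, and the other genes varied within a line as much as between lines.
The leading isoform was the same in all 4 libraries for TUG1 only. For LINC-PINT it was LINC-PINT:70 and LINC-PINT:36 in MDA-MB-231-P3, against LINC-PINT:78 and LINC-PINT:36 in MDA-MB-231. For TP53TG1 it was TP53TG1:25 and TP53TG1:21 in MDA-MB-231-P3, against TP53TG1:19 and TP53TG1:25 in MDA-MB-231.

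Make-up was compared between libraries as the percentage of a gene's FPKM that sat on different isoforms. For TUG1, libraries of different lines differed by 17.8% to 37.4%, the MDA-MB-231-P3 libraries by 29.6% and the MDA-MB-231 libraries by 22.3%. For LINC-PINT these values were 25.6% to 33.4% between lines, 20.3% within MDA-MB-231-P3 and 41.7% within MDA-MB-231. For TP53TG1 they were 26.5% to 64.3% between lines, 62.6% within MDA-MB-231-P3 and 50.7% within MDA-MB-231. In none of the 3 did all between-line values exceed both within-line values. The medians over 632 genes with at least 10 isoforms and a mean of at least 1 FPKM were 36.3% to 40.2% between lines, 33.1% within MDA-MB-231-P3 and 38.7% within MDA-MB-231.

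**Figure D4:**
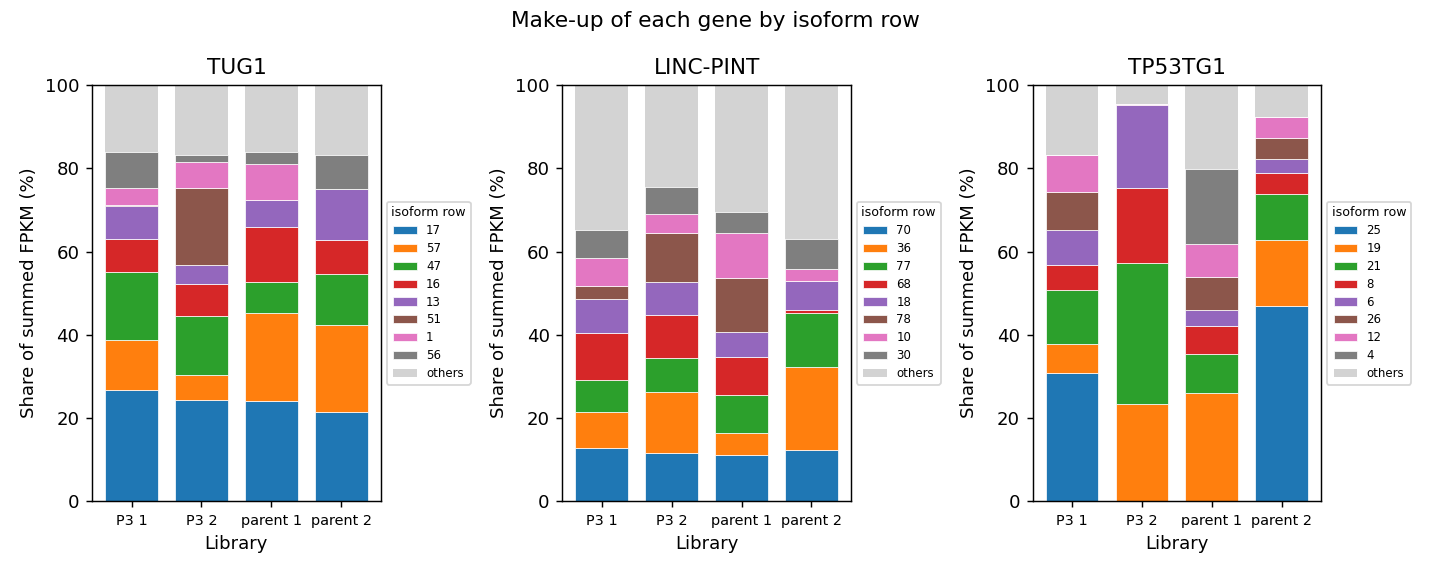
Share of the summed FPKM of each gene (vertical axes, %) held by its 8 isoforms of highest mean FPKM and by all others, per library (horizontal axes; P3, MDA-MB-231-P3; parent, MDA-MB-231). TUG1:17 leads TUG1 in each library with 21.4% to 26.7%, whereas TP53TG1:25 holds 30.8% and near 0 in MDA-MB-231-P3 and near 0 and 47.0% in MDA-MB-231.

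Among lncRNAs reported to act with chromatin regulators, 8 of 9 names were in the table and 4 reached the filter. All 4 had a positive difference, where 54.7% of all tested genes did, with a median of 0.79 against 0.09 over all tested genes. The test called 0 of the 4, where it called 0.0621% of all tested genes. As 2 of the 4 were TUG1 and LINC-PINT themselves, the other genes were MALAT1 and KCNQ1OT1, with a median of 0.89, both with MDA-MB-231-P3 above MDA-MB-231 in all pairs. MALAT1, an abundant nuclear RNA, had 1982 and 1616 FPKM in MDA-MB-231-P3, against 717 and 952 FPKM in MDA-MB-231 (log2 difference 1.11, limma adjusted p = 0.282). KCNQ1OT1, which silences genes of its imprinted locus, had 2.14 and 1.62 FPKM in MDA-MB-231-P3, against 1.15 and 0.859 FPKM in MDA-MB-231 (log2 difference 0.66, limma adjusted p = 0.376). HOTAIR, HOTTIP, CDKN2B-AS1 and HOXA11-AS stayed under 0.1 FPKM in every library.

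Of 29 lncRNAs named for the genes around the 3 loci, 5 reached the filter of a mean of 0.5 FPKM, where 6444 of 46902 genes of the whole table did. Their median difference was 0.51, against 0.09 over all tested genes, and 4 of the 5 were positive, where 54.7% of all tested genes were. Among the positive ones, lnc-MORC2-8 had an MDA-MB-231 mean of 0.197 FPKM and passed the filter only through MDA-MB-231-P3, which set its sign. The test called 0 of the 5, where it called 0.0621% of all tested genes. Beside TUG1, lnc-MORC2-3 had 2.60 and 2.26 FPKM in MDA-MB-231-P3, against 1.56 and 1.92 FPKM in MDA-MB-231. The low lnc-MORC2-8 had 0.767 and 1.23 FPKM in MDA-MB-231-P3, against 0.352 and 0.0414 FPKM in MDA-MB-231. Neither overlapped, and both lay higher in MDA-MB-231-P3, as TUG1 and 28.9% of all tested genes did.
MKLN1-AS, named for the neighbour of LINC-PINT, starts 218136 bases from the LINC-PINT start and does not overlap that gene. It had 5.06 and 4.01 FPKM in MDA-MB-231-P3, against 2.22 and 4.04 FPKM in MDA-MB-231, so its pairs overlapped. Beside TP53TG1, lnc-CROT-5 had 2.65 and 1.64 FPKM in MDA-MB-231-P3, against 0.667 and 0.377 FPKM in MDA-MB-231. Its log2 difference of 1.36 (SE 0.35, limma adjusted p = 0.268) was opposite in sign to that of TP53TG1. In the same region, lnc-TMEM243-1 had 0.625 and 1.63 FPKM in MDA-MB-231-P3, against 1.74 and 2.20 FPKM in MDA-MB-231 (log2 difference -0.67, limma adjusted p = 0.495). The lncRNAs around TP53TG1 thus lay on both sides of 0. A name of this form gives a neighbouring gene and not a function. Apart from MKLN1-AS, coordinates of the tested lncRNAs named here were not used.

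**Figure D5:**
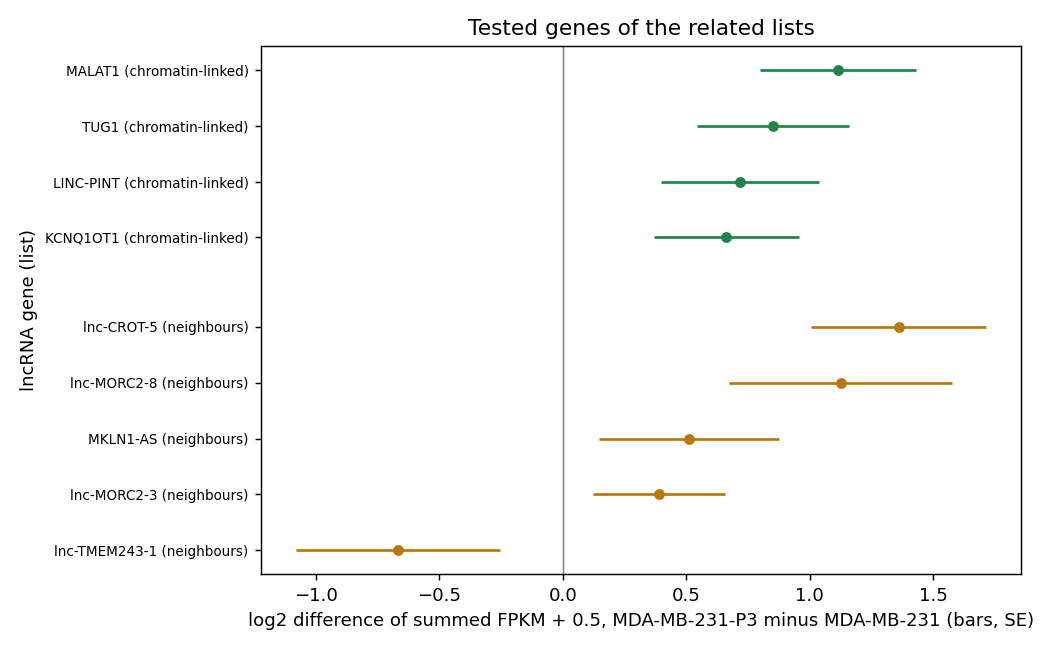
Difference of summed FPKM on the log2(FPKM + 0.5) scale, MDA-MB-231-P3 minus MDA-MB-231 (horizontal axis), of the tested genes of the chromatin-linked and neighbouring lists (vertical axis), with bars for the SE. TUG1 and LINC-PINT lie at 0.85 and 0.72 and lnc-TMEM243-1 at -0.67, and no gene shown passed the test.

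The patterns most like each gene over the 4 libraries were found by the Euclidean distance between log2(FPKM + 0.5) values centred on their own mean. Nearest to TUG1 were lnc-PSMB9-6, lnc-ATG4B-2 and lnc-ZNF217-5, at distances of 0.0386, 0.0514 and 0.0585, where the median over all other tested genes was 1.21. For example, lnc-PSMB9-6 had 2.37 and 2.63 FPKM in MDA-MB-231-P3, against 1.57 and 0.864 FPKM in MDA-MB-231. Nearest to LINC-PINT were lnc-OVGP1-1, lnc-PNN-4 and lnc-TAF1B-2, at 0.0438, 0.0482 and 0.0655. The low lnc-PNN-4 had 1.04 and 0.802 FPKM in MDA-MB-231-P3, against 0.570 and 0.184 FPKM in MDA-MB-231. Nearest to TP53TG1 were lnc-CD36-6, lnc-KPNA4-1 and lnc-TNFRSF17-2, at 0.0184, 0.0266 and 0.0277. The low lnc-CD36-6 had 0.347 and 0.395 FPKM in MDA-MB-231-P3, against 0.736 and 0.559 FPKM in MDA-MB-231. As the added 0.5 FPKM shrinks the changes of low genes, a small distance does not mean an equal ratio of FPKM. TUG1 and LINC-PINT stood 0.27 from each other, and TP53TG1 stood 1.27 from TUG1 and 1.16 from LINC-PINT. With 4 libraries, these distances are a description only.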

How the data were processed

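Strand-specific paired-end libraries were made from the mRNA fraction of cultured cells, per the labels' protocols. Reads were aligned by the authors to hg19 with HISAT2, and FPKM values per lncRNA isoform were deposited, per the labels' protocols, and the submitters' processing notes also name StringTie. For the annotation, tool versions and strand setting of the counting: not given in the sources used here. The per-library files held the same values as the series table.

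Isoforms were used singly or summed per gene. Features with a mean of at least 0.5 FPKM were tested on log2(FPKM + 0.5), which understates the change of low values, with limma 3.58.1 (R 4.3.3, two-sided eBayes test with trend, MDA-MB-231-P3 minus MDA-MB-231), with Benjamini-Hochberg adjustment over all features. Shares were tested as log2 of isoform over gene sum, each plus 0.5. Code was tested on simulated data. The members, lists and tests were chosen with earlier results of these data known. Isoforms with a mean of at least 0.5 FPKM, the highest of the rest per gene, tested members of the lists and the 3 nearest genes were named by rule. Settings tried were other pseudocounts, filters, normalizations, no trend, a replicate block, other ways of summing and leaving out each library. Loci came from GENCODE release 44 on GRCh37, promoters from RefSeq. A further gene list is given only by its count of calls and the members that changed sign, and a promoter motif is not reported here.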

Additional observations from a re-analysis of the deposited data

How the results depend on the processing

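The 3 summed genes kept their direction and stayed uncalled in all 16 alternatives. Without single libraries the log2 differences were 0.58 to 1.13 for TUG1, 0.42 to 1.01 for LINC-PINT and -0.50 to -0.29 for TP53TG1. Over all alternatives the limma adjusted p was 0.291 to 0.604 for TUG1, 0.337 to 0.670 for LINC-PINT and 0.417 to 0.894 for TP53TG1. The counts of 0 called isoforms, shares, chromatin-linked and neighbouring lncRNAs were the same in every alternative run. Among all tested genes, 0 to 5 were called across settings, and 6 isoforms, none of these 3 genes, with a minimum mean of 1 FPKM. The sums of isoforms with a mean of at least 0.5 FPKM and the sums without isoforms high in 1 library only were chosen after seeing the data, and gave LINC-PINT differences of 0.73 and 0.69.

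Uncalled differences of 10 of the 27 tested isoforms changed sign in some setting. Without single libraries they ranged over -0.44 to 1.35 for LINC-PINT:10, -0.18 to 1.30 for LINC-PINT:21, -0.17 to 0.061 for LINC-PINT:29, -0.51 to 2.52 for LINC-PINT:78, -1.55 to 0.47 for TP53TG1:25, -0.12 to 2.07 for TUG1:1, -0.30 to 0.64 for TUG1:15, -0.15 to 0.84 for TUG1:16, -0.39 to 1.20 for TUG1:56 and -0.74 to 0.00048 for TUG1:57. Shares changed sign for 4 of 11 TUG1, 8 of 13 LINC-PINT and 2 of 3 TP53TG1 isoforms, among them TP53TG1:19 at -0.60 to 0.22. Of a further list of 8 tested lncRNAs, the 3 genes included, 0 were called, where 0.0621% of all tested genes were. Among them PURPL was at 0.28 and ranged over -0.31 to 0.87 across settings. NEAT1 was at 0.25 and ranged over -0.035 to 1.25 across settings, and up to 0.53 without single libraries. PVT1 was at -0.24. With rescaling, LINC-PINT:29 was at 0.097 and PVT1 at 0.0069, and PVT1 was at 0.018 by its top isoform. Why was not tested. Where a line keeps 1 library, its spread is taken from the other line.

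Same-numbered libraries deviated together with a correlation of 0.0474 over isoforms and 0.0777 over genes. The labels do not say what the numbers stand for, and a shared culture or batch was not tested. With the replicate block the differences were 0.85 for TUG1, 0.72 for LINC-PINT and -0.40 for TP53TG1, with limma adjusted p of 0.369, 0.381 and 0.55, and 0 isoforms and 0 genes of the whole table were called, against 0 and 4. Depth was unknown, which limits what can be said of low isoforms.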
